A study of Mus musculus with 9 samples.

Results

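Transcript levels of Trp53, the mouse gene for p53, and of 9 genes activated by p53 were followed in mouse embryonic stem cells in which Pfkp or Lin41 had been knocked down. The genes were chosen by symbol: Trp53, Mdm2, Ccng1, Trp53inp1, Zmat3, Phlda3, Aen, Bax, Bbc3 and Pmaip1. All 10 were among the 22322 genes listed, and all 10 passed the filter on low counts that left 13158 genes for testing. Their read counts lay between 156 and 7750 per library. The study used R1 cells, a mouse embryonic stem cell line, labelled WT for genotype in the control group. Short hairpin RNAs defined the groups: sh-ctrl was the control, sh-Pfkp targeted Pfkp and sh-Lin41 targeted Lin41, each with 3 RNA-seq libraries. All 3 groups were grown in suspension without the self-renewal factor LIF until day 6, when they formed embryoid bodies, the aggregates in which stem cells begin to differentiate. Pfkp encodes a phosphofructokinase of glycolysis. Lin41 is the RNA-binding protein made from Trim71, and the title of the series concerns Pfkp acting on Lin41. The labels name 1 hairpin for each gene and do not say whether the lines were clones or pools, so an effect of a hairpin or a line and an effect of the knockdown cannot be told apart. Nothing in the labels says that libraries of a group were grown separately. The p-values below therefore reflect only how much libraries of a group varied, and that variation may be technical.

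p53 is a transcription factor that is held at a low level by the ubiquitin ligase Mdm2 and is released when DNA is damaged or ribosome assembly or nutrient supply is disturbed. It binds a pair of adjoining half-sites in DNA and switches on genes that pause the cell cycle, repair DNA, alter metabolism or start cell death. Mdm2 is itself one of these genes, which closes a negative feedback loop. Embryonic stem cells carry abundant p53 and are known to favour death or differentiation over lasting arrest. Because p53 is controlled largely at the protein level, Trp53 mRNA is not a measure of p53 activity, and no protein was measured here.

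The promoter windows of the genes are shown first, since the genes other than Trp53 are described as targets of p53. RefSeq sequences (GRCm38.p6) from 250 bases before to 50 bases after a start of transcription were given for 7 of the 10 genes. A match to the 10-base p53 half-site on either strand stood in a window of 5 of these 7 genes: Trp53, Mdm2, Ccng1, Bax and Aen. In all, 9.55% of 27025 genes with windows had such a match. The 30-base stretches around the matches read 5′ to 3′ along each gene's strand, with the half-site in capitals.
Trp53 (chr11:69580274-69580303, plus strand): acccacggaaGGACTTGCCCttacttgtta
Mdm2 (chr10:117710925-117710954, minus strand): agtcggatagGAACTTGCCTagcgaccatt
Ccng1 (chr11:40755452-40755481, minus strand): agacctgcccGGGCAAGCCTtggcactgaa
Bax (chr7:45467080-45467109, minus strand): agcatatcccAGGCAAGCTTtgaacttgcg
Aen (chr7:78895927-78895956, plus strand): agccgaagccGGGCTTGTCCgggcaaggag
The matches began 75 bases before the start of transcription in Trp53, 186 in Mdm2, 185 in Ccng1 and 201 in Bax. In Aen the same match lay 121 bases before one start and at base 11 after the other. No exact match lay in the window of Phlda3 or in the 3 windows of Bbc3, which says only that these letters are not in those windows. A pair of exact half-sites, adjoining or with a short spacer between them, was in none of the 10 windows of these genes. Such a pair was in 0.0731% of all 32851 windows. With 1 mismatch allowed anywhere except at the fixed C and G of the half-site, 6 of the 7 genes had a half-site, beside 54.2% of all genes. The window of Ccng1 then held a pair by the same spacing rule, beside 2.71% of all windows. Its inexact half-site, just before the capitals above, had a C at a central position where the half-site takes A or T. A match describes letters and is not a measured binding site.

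Library totals lay between 15495194 and 20607683 counts. Pfkp stood at 244.9 to 248.2 CPM (reads relative to TMM-scaled library size) in sh-ctrl and at 101.1 to 104.8 CPM in sh-Pfkp, and Trim71 at 263.6 to 272.9 CPM in sh-ctrl and at 155.8 to 165 CPM in sh-Lin41. Both targeted genes were thus lower in the libraries labelled for them. Each also differed from control in the other knockdown, in opposite directions. Trim71 averaged 268.7 CPM in the control libraries and 352 CPM under sh-Pfkp, a rise of 0.39 on the log2 scale. Its SE was 0.0238 (edgeR adjusted p = 4.06e-15). Pfkp averaged 247 CPM in the control libraries and 227 CPM under sh-Lin41, a log2 change of -0.12. Its SE was 0.0243 (edgeR adjusted p = 8.68e-05). All 8 markers of pluripotent cells were detected in every group, with a summed level of 3468 to 3523 CPM in sh-ctrl, 3620 to 3673 CPM in sh-Pfkp and 4337 to 4365 CPM in sh-Lin41. In sh-Pfkp 4 of the 8 were higher and 4 lower than control (edgeR adjusted p under 0.05), beside 28.3% higher and 28.3% lower of all genes. In sh-Lin41 6 were higher, 1 lower and 1 not called, beside 26.9% higher and 27.3% lower of all genes. The 10 fibroblast and stromal markers summed to 13.78 to 15.08 CPM in sh-ctrl, 29.88 to 34.51 CPM in sh-Pfkp and 10.13 to 12.49 CPM in sh-Lin41. Dcn, Lum and Postn were at 0 counts in sh-ctrl and sh-Lin41, and no marker of the 10 was at 0 in sh-Pfkp. These markers did not all move one way: of 8 tested in sh-Pfkp, 6 were higher and 2 lower. Vcam1 went from 0.0213 to 6.473 CPM (group means) and Col1a2 from 0.0213 to 5.079 CPM, while Pdgfrb fell from 8.273 to 2.571 CPM and Thy1 from 3.698 to 1.847 CPM. The 13 mitochondrially encoded transcripts summed to 50770 to 52710 CPM in sh-ctrl, 67820 to 70240 CPM in sh-Pfkp and 71060 to 73790 CPM in sh-Lin41. The part of these differences in the results below was not tested. In bulk RNA, fewer cells of a type and less RNA per cell cannot be told apart.

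Every one of the 10 genes differed between sh-Pfkp and sh-ctrl. Trp53, Mdm2, Ccng1, Trp53inp1, Zmat3, Phlda3, Aen and Bax were higher, and the pro-death BH3-only genes Bbc3 (Puma) and Pmaip1 (Noxa) were lower. Of all genes tested, 56.6% were called in this comparison, 28.3% higher and 28.3% lower, so a call alone was common. The 3 sh-Pfkp libraries and the 3 sh-ctrl libraries did not overlap in CPM for any of the 10 genes, as was the case for 61.0% of all genes tested. The changes were below 2-fold for all 10, with log2 fold changes from -0.63 to 0.51. The median log2 fold change of the 10 was 0.227, beside -0.005 over all genes tested, and the median size without sign was 0.358 beside 0.212. Calls used edgeR's quasi-likelihood test with adjusted p under 0.05 over all genes tested.

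sh-Lin41 gave fewer calls among these genes. Mdm2, Ccng1, Trp53inp1 and Bax were higher than in sh-ctrl, Trp53 and Pmaip1 were lower, and Bbc3, Zmat3, Phlda3 and Aen did not pass the test. The 6 called genes are to be read beside the 54.3% of all genes called in this comparison, 26.9% higher and 27.3% lower. Groups did not overlap for the 6 called genes, nor for 59.0% of all genes tested. The median log2 fold change of the 10 was 0.0497, beside 0.00428 over all genes, and the median size without sign was 0.177 beside 0.204. Both knockdowns were compared with the same 3 sh-ctrl libraries, so their fold changes are not independent of each other.

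**Figure D1:**
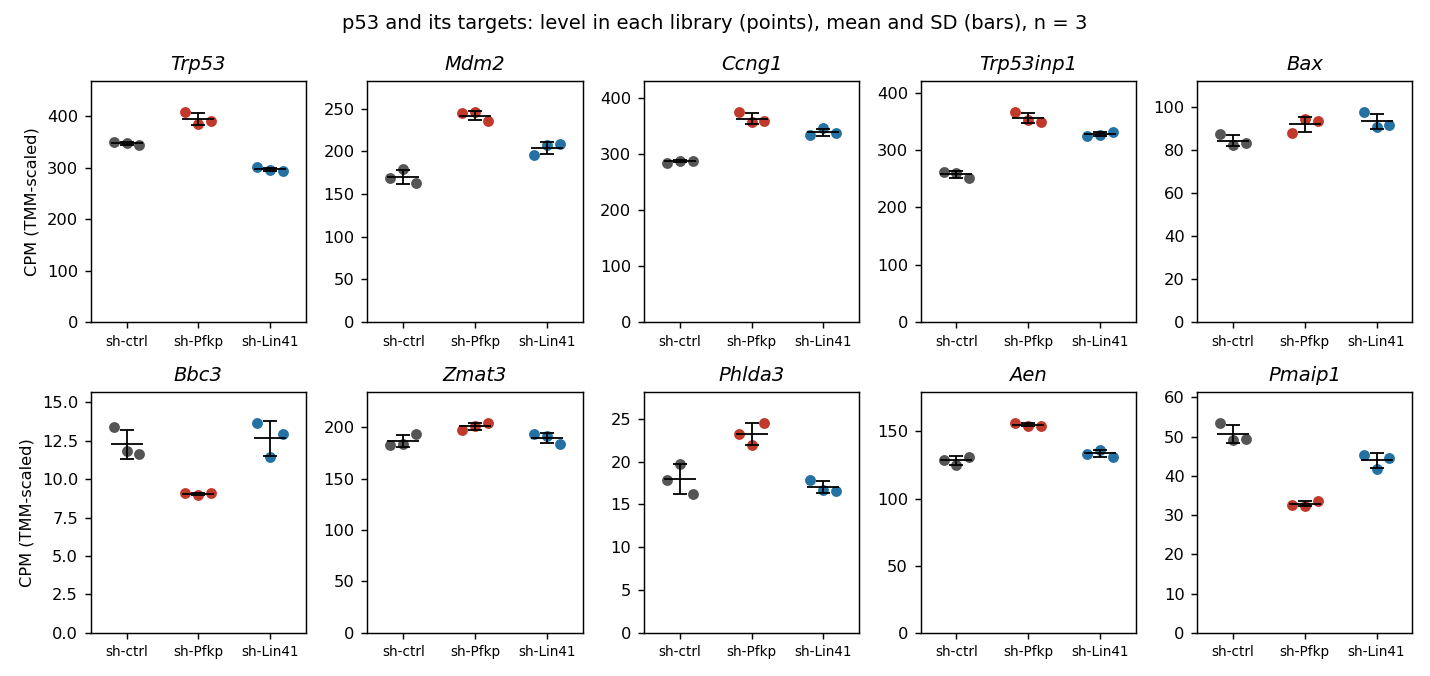
Level of each of the 10 genes (CPM on a linear axis from 0) in each library, with points for the 3 libraries of sh-ctrl, sh-Pfkp and sh-Lin41 and bars for the group mean ± SD. Trp53 is highest in sh-Pfkp and lowest in sh-Lin41, Mdm2, Ccng1 and Trp53inp1 are higher than control in both knockdowns, and Pmaip1 is lower in both.

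Trp53 moved in opposite directions in the knockdowns. Its level in the 3 sh-ctrl libraries was 350.3, 348.1 and 345 CPM. The sh-Pfkp libraries held 407.7, 385.2 and 391.2 CPM. The sh-Lin41 libraries held 300.7, 296.5 and 293.6 CPM. No value of one group fell within the range of another, and the largest spread was that of sh-Pfkp. The mean was 347.8 ± 2.67 CPM (SD, n = 3) in sh-ctrl, 394.7 ± 11.7 in sh-Pfkp and 296.9 ± 3.57 in sh-Lin41. On the log2 scale the difference was 0.18 (SE 0.022, edgeR adjusted p = 1.96e-08) for sh-Pfkp and -0.23 (SE 0.0224, edgeR adjusted p = 2.92e-10) for sh-Lin41, which is 13.5% higher and 14.6% lower. The direct difference between the knockdowns was 0.41 (SE 0.022, edgeR adjusted p = 1.51e-16).

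Mdm2, the ligase that marks p53 for degradation and a target of p53, was higher in both knockdowns, including sh-Lin41, where Trp53 mRNA was lower. It stood at 168.8, 178.9 and 162.5 CPM in sh-ctrl. The levels were 244.8, 245.4 and 235.3 CPM in sh-Pfkp. In sh-Lin41 they were 195.9, 207.2 and 208.7 CPM. The 3 groups were fully separated, in the order sh-ctrl, sh-Lin41, sh-Pfkp. Mdm2 had the largest rise of the 10 genes under sh-Pfkp, with a log2 change of 0.51 (SE 0.0301, edgeR adjusted p = 1.68e-15), or 42.5%. Under sh-Lin41 it rose by 0.26 on the log2 scale (SE 0.0305, edgeR adjusted p = 8.63e-09), or 20.1%.

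Ccng1 and Trp53inp1 had the same order of groups as Mdm2. Ccng1 encodes cyclin G1, which recruits a phosphatase to Mdm2. Ccng1 was at 284.6, 287.7 and 287.4 CPM in the control libraries, at 374, 357.5 and 358 CPM under sh-Pfkp and at 334.2, 345.6 and 336.7 CPM under sh-Lin41. Its log2 fold changes were 0.34 (SE 0.0225, edgeR adjusted p = 2.36e-14) for sh-Pfkp and 0.24 (SE 0.0225, edgeR adjusted p = 8.32e-11) for sh-Lin41. All 6 knockdown libraries lay above all control libraries. Trp53inp1 encodes a nuclear body protein that takes part in the phosphorylation of p53 and in autophagy. Trp53inp1 was at 262.6, 260.3 and 250.7 CPM in the control libraries, at 365.6, 352.3 and 349.7 CPM under sh-Pfkp and at 324.8, 326.4 and 331.4 CPM under sh-Lin41. It had the largest rise of the 10 genes under sh-Lin41, 0.35 (SE 0.0233, edgeR adjusted p = 4.38e-14), and rose by 0.47 under sh-Pfkp (SE 0.0233, edgeR adjusted p = 2.57e-17). Neither the control and knockdown groups nor the pair of knockdown groups overlapped for either gene.

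Phlda3, Aen and Zmat3 rose in sh-Pfkp and did not pass the test in sh-Lin41. Phlda3 encodes a pleckstrin-homology protein that restrains Akt signalling. Phlda3 stood at 17.84, 19.75 and 16.25 CPM in the control libraries, at 23.25, 21.94 and 24.48 CPM under sh-Pfkp and at 17.87, 16.68 and 16.51 CPM under sh-Lin41. The sh-Pfkp values lay above the rest, and the sh-Lin41 values lay within the control range. Its log2 change measured 0.37 (SE 0.075, edgeR adjusted p = 8.11e-05) for sh-Pfkp and -0.0708 (SE 0.078, edgeR adjusted p = 0.463) for sh-Lin41. Aen encodes a nuclease that enhances apoptosis. Aen was at 128.8, 125.1 and 131.3 CPM in the control libraries, at 156.2, 154.4 and 154.3 CPM under sh-Pfkp and at 133.4, 136.5 and 131.1 CPM under sh-Lin41. Its log2 change measured 0.27 (SE 0.0286, edgeR adjusted p = 1.47e-09) for sh-Pfkp and 0.0575 (SE 0.029, edgeR adjusted p = 0.0937) for sh-Lin41. The size of the Aen rise depended on the unit, since the FPKM values gave 0.15 in the authors' deposited table. Zmat3 encodes a zinc-finger RNA-binding protein. Zmat3 was at 182.8, 184.2 and 193.2 CPM in the control libraries, at 197.3, 201.2 and 204.1 CPM under sh-Pfkp and at 193.1, 191.6 and 183.7 CPM under sh-Lin41. The Zmat3 rise in sh-Pfkp was 0.10 (SE 0.0273, edgeR adjusted p = 0.00163). That call was lost when libraries were scaled by their totals (0.056, edgeR adjusted p = 0.0804) and on the FPKM scale (0.0535 on log2(FPKM + 1), limma adjusted p = 0.254).

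The genes of the mitochondrial death pathway did not move together. Bax encodes the effector that opens the outer mitochondrial membrane. Bax was at 87.55, 82.44 and 83.47 CPM in the control libraries, at 88.13, 94.81 and 93.45 CPM under sh-Pfkp and at 97.62, 90.98 and 91.9 CPM under sh-Lin41. Both knockdown groups lay above control, by as little as 88.13 against 87.55 CPM between the nearest libraries. The log2 fold change of Bax was 0.12 (SE 0.0379, edgeR adjusted p = 0.006) for sh-Pfkp and 0.15 (SE 0.0375, edgeR adjusted p = 0.00148) for sh-Lin41. The call for sh-Pfkp was lost with library totals (0.0761, edgeR adjusted p = 0.0879) and on the FPKM scale (0.0852 on log2(FPKM + 1), limma adjusted p = 0.0892).

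Bbc3 and Pmaip1 encode BH3-only proteins that bind and neutralise the survival members of the BCL2 family. Bbc3 was at 13.38, 11.82 and 11.67 CPM in the control libraries, at 9.102, 8.969 and 9.072 CPM under sh-Pfkp and at 13.65, 11.43 and 12.93 CPM under sh-Lin41. It fell only in sh-Pfkp among the comparisons with control, with a log2 change of -0.44 (SE 0.0995, edgeR adjusted p = 0.000333), or 26.4% less. Under sh-Lin41 its log2 change measured 0.0418 (SE 0.094, edgeR adjusted p = 0.731), and the groups overlapped. Pmaip1 was at 53.41, 49.21 and 49.45 CPM in the control libraries, at 32.62, 32.39 and 33.61 CPM under sh-Pfkp and at 45.32, 41.85 and 44.57 CPM under sh-Lin41. The 3 groups were separated, with sh-Pfkp lowest. Pmaip1 fell by 0.63 on the log2 scale in sh-Pfkp (SE 0.0501, edgeR adjusted p = 2.85e-12), the largest change of the 10 genes in either comparison with control. In sh-Lin41 it fell by 0.21 (SE 0.0473, edgeR adjusted p = 0.000391).

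**Figure D2:**
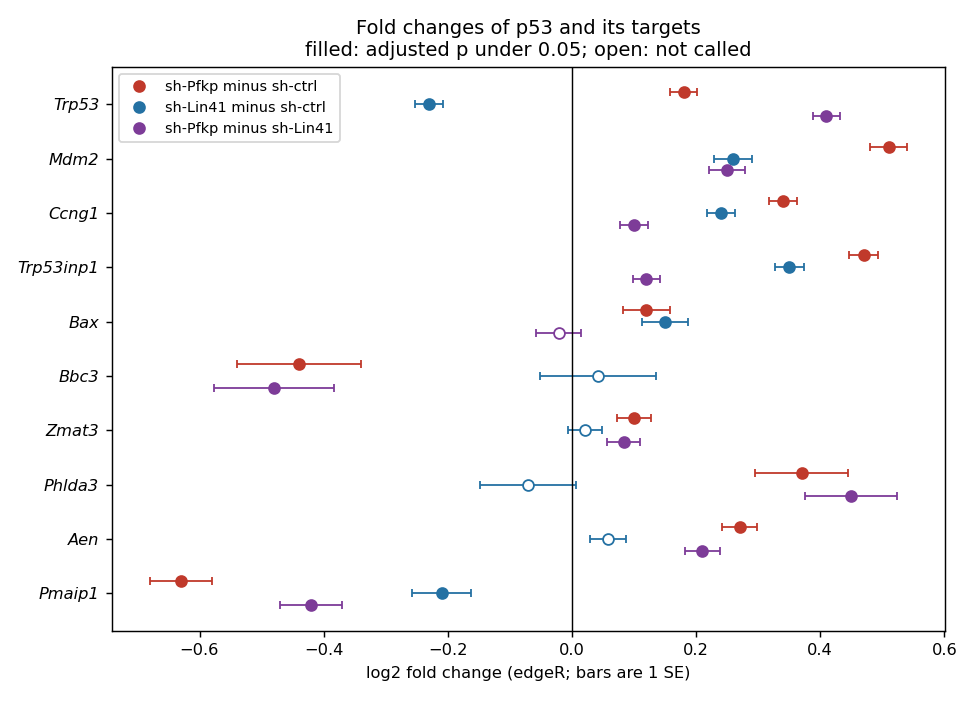
Log2 fold change of each of the 10 genes from the deposited counts (edgeR) for sh-Pfkp and sh-Lin41 against sh-ctrl and for sh-Pfkp against sh-Lin41, with bars of 1 SE, filled points for genes called and open points for those not called. Trp53 lies at 0.18 for sh-Pfkp and at -0.23 for sh-Lin41, and Pmaip1 lies lowest, at -0.63, for sh-Pfkp.

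The knockdowns were also compared with each other, a contrast in which the control libraries cancel. Of the 10 genes, 7 were higher in sh-Pfkp, 2 were lower, and Bax did not pass the test. Over all genes tested, 55.1% were called, 27.4% higher and 27.8% lower. The widest gaps were those of Bbc3, -0.48 (SE 0.0973, edgeR adjusted p = 8.57e-05), and Phlda3, 0.45 (SE 0.0739, edgeR adjusted p = 5.48e-06), followed by Pmaip1, -0.42 (SE 0.0502, edgeR adjusted p = 1.84e-08), and Trp53 at 0.41. Mdm2 was 0.25 higher in sh-Pfkp (SE 0.029, edgeR adjusted p = 1.15e-08) and Aen 0.21 higher (SE 0.028, edgeR adjusted p = 9.9e-08). The gap was narrow for Trp53inp1 (0.12, SE 0.0224, edgeR adjusted p = 3.22e-05), Ccng1 (0.10, SE 0.0219, edgeR adjusted p = 0.000243) and Zmat3 (0.0831, SE 0.0268, edgeR adjusted p = 0.00915). Bax differed by -0.0216 (SE 0.0366, edgeR adjusted p = 0.636). Groups did not overlap for the 9 called genes and for 59.8% of all genes tested. On log2(FPKM + 0.1) the number called higher was 4 in place of 7, because Ccng1, Trp53inp1 and Zmat3 did not pass. On log2(FPKM + 1) the Ccng1 call was lost (0.0533, limma adjusted p = 0.0904). The Zmat3 call was lost on log2(FPKM + 1) (0.0382, limma adjusted p = 0.422), with library totals (0.037, edgeR adjusted p = 0.248) and without sh-Lin41 replicate 3 (0.0659, edgeR adjusted p = 0.0587).

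Levels can be compared between genes only per transcript length, for which the deposited FPKM values were used. In sh-ctrl the order of mean FPKM was Trp53 at 197.4, Bax at 92.19, Ccng1 at 82.54, Mdm2 at 55.6, Aen at 54.34, Trp53inp1 at 48.27, Zmat3 at 25.84, Pmaip1 at 19.31, Phlda3 at 12.65 and Bbc3 at 7.62. Among neighbours in this order only Mdm2 (53.29 to 58.39 FPKM) and Aen (52.34 to 56.21 FPKM) overlapped over the 3 libraries. In sh-Pfkp Ccng1 had the second highest mean at 101.2 FPKM, and its libraries overlapped with those of Bax at 97.87 FPKM. Trp53inp1, at 64.44 FPKM, lay above Aen at 60.35 FPKM in that group. Phlda3, at 15.84 FPKM, lay above Pmaip1 at 11.87 FPKM, which is the reverse of their order in control. In sh-Lin41 Pmaip1 was at 16.36 FPKM and Phlda3 at 11.98 FPKM, the order of control. There too Trp53inp1, at 61.23 FPKM, lay above Aen, at 55.41 FPKM.

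The authors' deposited table gives log2 ratios of mean FPKM against control, which can be set beside the fold changes from counts. For sh-Pfkp all 10 ratios in the authors' deposited table lay below the edgeR values, as for Mdm2 (0.459), Trp53 (0.136), Bax (0.0862), Zmat3 (0.0555) and Pmaip1 (-0.7014). For sh-Lin41 the ratios in the authors' deposited table lay near the edgeR values for Trp53 (-0.2275), Mdm2 (0.2602) and Ccng1 (0.24), and apart for Bbc3 (0.1216, FDR 0.836). The scale mattered for all genes and not these alone. With TMM scaling 49.9% of the genes called for sh-Pfkp against sh-ctrl were higher, with library totals 40.3% and on log2(FPKM + 1) 39.7%. Between the knockdowns these shares were 49.7%, 40.1% and 40.8%.

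**Figure D3:**
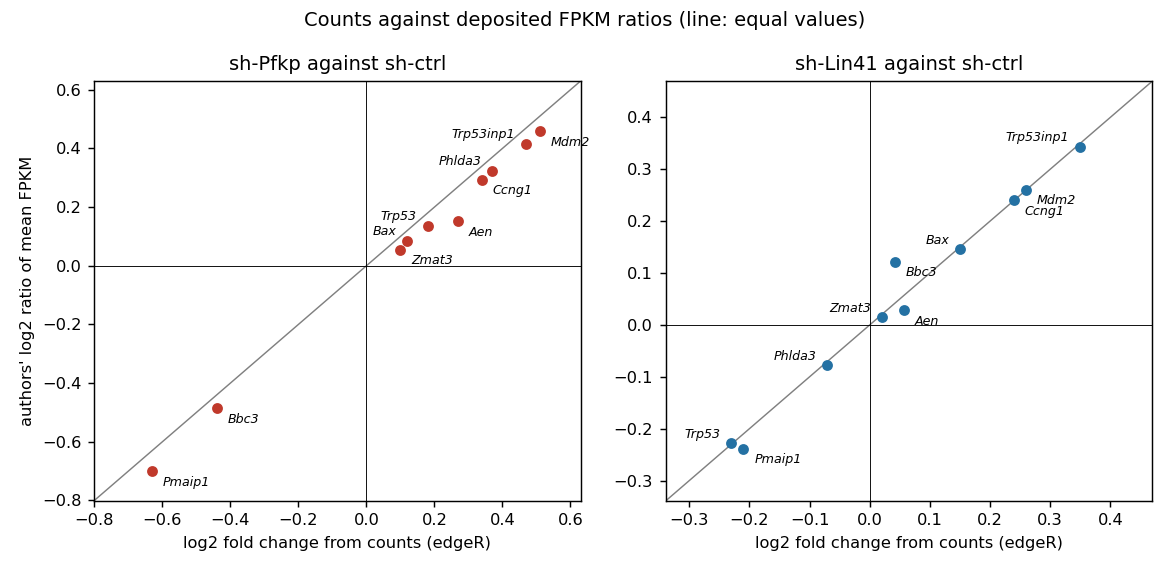
Log2 fold change from counts (edgeR, horizontal) against the authors' deposited log2 ratio of mean FPKM (vertical) for the 10 genes, one panel for each knockdown against sh-ctrl, with the line of equal values. All 10 points lie below the line for sh-Pfkp, with Aen at 0.27 and 0.15, and most lie near it for sh-Lin41.

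Other genes of the pathway were described from lists, without a test of any list. The counts that follow are to be read beside the shares of all genes tested: 28.3% were higher and 28.3% lower in sh-Pfkp, and 26.9% were higher and 27.3% lower in sh-Lin41. Calls in both directions were thus common among all genes. Of 21 family members and regulators of p53, 20 were tested. In sh-Pfkp 10 were higher, 7 lower and 3 not called, and in sh-Lin41 10 were higher, 6 lower and 4 not called. That is 85.0% and 80.0% called, beside 56.6% and 54.3% of all genes. The median log2 fold change of the list was 0.0533 in sh-Pfkp and 0.114 in sh-Lin41, beside -0.005 and 0.00428 over all genes tested. Crebbp, an acetyltransferase that acts on p53, rose from 50.2 ± 1.48 CPM (SD, n = 3) to 76.09 ± 4.13 in sh-Pfkp and 81.01 ± 0.571 in sh-Lin41. Sirt1, a deacetylase of p53, rose by 0.58 on the log2 scale in sh-Pfkp (SE 0.0295, edgeR adjusted p = 3.98e-17) and by 0.26 in sh-Lin41 (SE 0.0301, edgeR adjusted p = 6.38e-09). Atr, a kinase of the DNA damage response, fell by 0.36 in sh-Pfkp (SE 0.0367, edgeR adjusted p = 7e-10) and by 0.13 in sh-Lin41 (SE 0.0356, edgeR adjusted p = 0.00189). Prkdc, the catalytic subunit of DNA-PK, rose by 0.72 in sh-Lin41 (SE 0.0384, edgeR adjusted p = 1.05e-16) and by 0.23 in sh-Pfkp (SE 0.0405, edgeR adjusted p = 1.16e-05). Mdm4, the partner of Mdm2, fell by 0.11 in sh-Lin41 (SE 0.0207, edgeR adjusted p = 3.47e-05) and by 0.10 in sh-Pfkp (SE 0.0207, edgeR adjusted p = 0.000214). Both Mdm4 calls were lost on log2(FPKM + 1), with -0.0144 in sh-Lin41 and -0.0496 in sh-Pfkp (limma adjusted p = 0.738 and 0.219). Rpl5, a ribosomal protein that can bind Mdm2, fell by 0.19 in sh-Pfkp (SE 0.0174, edgeR adjusted p = 5.32e-11) and by 0.12 in sh-Lin41 (SE 0.0173, edgeR adjusted p = 4.36e-07).

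Of 11 tested targets of p53 in cell cycle arrest, 6 were higher, 3 lower and 2 not called in sh-Pfkp, and 6 higher, 2 lower and 3 not called in sh-Lin41. That is 81.8% and 72.7% called, beside 56.6% and 54.3% of all genes. Plk2, a polo-like kinase, rose from 25.09 ± 0.842 CPM (SD, n = 3) to 49.41 ± 1.69 in sh-Pfkp and 39.87 ± 0.633 in sh-Lin41. Gtse1, a microtubule-linked protein of the late cell cycle, rose by 0.37 in sh-Pfkp (SE 0.0295, edgeR adjusted p = 2.54e-12). In sh-Lin41 Gtse1 was 0.10 higher (SE 0.03, edgeR adjusted p = 0.00675), a call lost without sh-ctrl replicate 1 (0.0537, edgeR adjusted p = 0.138). Ptprv, a tyrosine phosphatase, rose by 0.96 in sh-Lin41 (SE 0.074, edgeR adjusted p = 1.21e-12) and 0.89 in sh-Pfkp (SE 0.0751, edgeR adjusted p = 8.67e-12). Both Ptprv calls were lost on log2(FPKM + 1), with 0.74 in sh-Lin41 and 0.26 in sh-Pfkp (limma adjusted p = 0.118 and 0.571). Sfn, which encodes 14-3-3 sigma, fell from 42.78 ± 1.72 CPM to 31.69 ± 1.57 in sh-Pfkp and to 16.44 ± 0.899 in sh-Lin41. Gadd45a, a stress sensor, fell by 0.33 in sh-Pfkp (SE 0.0446, edgeR adjusted p = 2.09e-07) and was not called in sh-Lin41 (0.0741, SE 0.0423, edgeR adjusted p = 0.141). Plk3, another polo-like kinase, had opposite calls in the knockdowns. Plk3 rose from 47.89 ± 3.26 CPM to 67.5 ± 1.92 in sh-Pfkp (0.50, SE 0.0469, edgeR adjusted p = 1.19e-10). In sh-Lin41 Plk3 was lower, at 42.79 ± 1.96 CPM (-0.16, SE 0.0499, edgeR adjusted p = 0.00855), a call lost without sh-ctrl replicate 2 (-0.11, edgeR adjusted p = 0.0915) or sh-Lin41 replicate 3 (-0.12, edgeR adjusted p = 0.0665). Cdkn1a, which encodes the cyclin-dependent kinase inhibitor p21, was chosen after its values were seen. Cdkn1a was at 54.33, 57 and 58.39 CPM in the control libraries, at 52.93, 52.53 and 52.98 CPM under sh-Pfkp and at 60.88, 57.57 and 57.29 CPM under sh-Lin41. It did not rise in sh-Pfkp: the log2 change was -0.10 (SE 0.043, edgeR adjusted p = 0.0483), and 17 of 20 alternatives left it above the threshold, with adjusted p up to 0.238. For sh-Lin41 it was 0.0504 (SE 0.042, edgeR adjusted p = 0.323).

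Among 10 tested targets in cell death outside the genes above, 4 were higher, 3 lower and 3 not called in sh-Pfkp, and 3 higher, 5 lower and 2 not called in sh-Lin41. That is 70.0% and 80.0% called, beside 56.6% and 54.3% of all genes. Apaf1, the scaffold of the apoptosome, rose by 0.38 in sh-Pfkp (SE 0.0439, edgeR adjusted p = 8.52e-09) and 0.48 in sh-Lin41 (SE 0.0432, edgeR adjusted p = 4.63e-11). Eda2r, a death receptor of the TNF receptor family, rose by 0.45 (SE 0.0353, edgeR adjusted p = 1.84e-12) and 0.34 (SE 0.0354, edgeR adjusted p = 7.16e-10). Bid, which links death receptors to mitochondria, fell by 0.28 in sh-Lin41 (SE 0.0436, edgeR adjusted p = 1.75e-06). In sh-Pfkp Bid was lower by -0.12 (SE 0.0432, edgeR adjusted p = 0.018), a call lost with DESeq2 (-0.11, adjusted p = 0.0755) and without sh-ctrl replicate 1 (-0.11, edgeR adjusted p = 0.0549), sh-ctrl replicate 3 (-0.0878, edgeR adjusted p = 0.135) or sh-Pfkp replicate 2 (-0.10, edgeR adjusted p = 0.074).

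Of 10 tested BCL2 family genes outside the chosen ones, 2 were higher, 5 lower and 3 not called in sh-Pfkp, and 3 higher, 4 lower and 3 not called in sh-Lin41. That is 70.0% called in each, beside 56.6% and 54.3% of all genes. The BH3-only gene Bmf fell from 20.62 ± 1.08 CPM (SD, n = 3) to 11.73 ± 0.775 in sh-Pfkp. In sh-Lin41 Bmf was higher, at 23.36 ± 1.81 CPM (0.18, SE 0.0729, edgeR adjusted p = 0.0331). That call was lost with DESeq2 (0.18, adjusted p = 0.0986), on log2(FPKM + 1) (0.089, limma adjusted p = 0.609) and without sh-ctrl replicate 2 or 3 or sh-Lin41 replicate 1 or 2 (edgeR adjusted p = 0.064, 0.151, 0.107 and 0.166). Its relative Bcl2l11 (Bim) fell from 51.68 ± 0.764 CPM to 39.99 ± 1.33 in sh-Lin41 but rose to 59.86 ± 1.05 in sh-Pfkp. The effector Bak1 fell by 0.27 (SE 0.0364, edgeR adjusted p = 1.38e-07) in sh-Pfkp and 0.22 (SE 0.0359, edgeR adjusted p = 4.26e-06) in sh-Lin41. The survival gene Bcl2l1 rose by 0.38 in sh-Pfkp (SE 0.0633, edgeR adjusted p = 5.65e-06) and was not called in sh-Lin41 (0.0877, SE 0.0649, edgeR adjusted p = 0.261). The survival gene Mcl1 rose by 0.28 in sh-Lin41 (SE 0.0188, edgeR adjusted p = 4.89e-14) and was lower in sh-Pfkp (-0.0696, SE 0.0191, edgeR adjusted p = 0.00249).

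Of 7 tested targets in DNA repair, 1 was higher, 2 were lower and 4 not called in each knockdown. That is 42.9% called, beside 56.6% of all genes in sh-Pfkp and 54.3% in sh-Lin41. Rrm2b, the p53-induced subunit of ribonucleotide reductase, fell from 12.48 ± 0.568 CPM (SD, n = 3) to 8.721 ± 0.422 in sh-Pfkp and 8.954 ± 0.655 in sh-Lin41. The call for sh-Lin41 was lost on log2(FPKM + 1) (-0.22, limma adjusted p = 0.179). Polk of the same list rose by 0.32 in sh-Pfkp (SE 0.0547, edgeR adjusted p = 7.62e-06) and by 0.15 in sh-Lin41 (SE 0.0553, edgeR adjusted p = 0.0189). The Polk call in sh-Lin41 was lost in 5 of 20 alternatives. Of 14 targets in metabolism and secretion, 5 were higher, 4 lower and 5 not called in sh-Pfkp, and 5 higher, 3 lower and 6 not called in sh-Lin41, which is 64.3% and 57.1% called beside the same shares of all genes. Sesn2, a stress-induced inhibitor of growth signalling, rose by 0.38 in sh-Pfkp (SE 0.0348, edgeR adjusted p = 6.02e-11) and 0.29 in sh-Lin41 (SE 0.0348, edgeR adjusted p = 1.47e-08). The glutaminase gene Gls2 fell by 0.51 (SE 0.0695, edgeR adjusted p = 1.76e-07) and 0.30 (SE 0.0673, edgeR adjusted p = 0.000296). Gpx1 rose by 0.47 in sh-Pfkp (SE 0.0224, edgeR adjusted p = 7.41e-18) and was not called in sh-Lin41 (0.00674, SE 0.0229, edgeR adjusted p = 0.825). Among 14 cell cycle genes that p53 and p21 repress, 1 was higher, 5 lower and 8 not called in sh-Pfkp, and 3 higher, 6 lower and 5 not called in sh-Lin41. That is 42.9% and 64.3% called, beside 56.6% and 54.3%. The transcription factor gene E2f1 was lower in both, at 68.1 ± 2.06 CPM in sh-ctrl, 50.96 ± 1.02 in sh-Pfkp and 50.01 ± 1.73 in sh-Lin41. Mybl2 was higher in both, by 0.12 in sh-Pfkp (SE 0.0185, edgeR adjusted p = 1.25e-06) and 0.19 in sh-Lin41 (SE 0.0184, edgeR adjusted p = 2.89e-10). Top2a rose by 0.11 in sh-Lin41 (SE 0.0157, edgeR adjusted p = 8.77e-07) and was lower in sh-Pfkp (-0.15, SE 0.0158, edgeR adjusted p = 1.05e-09). Mki67 fell by 0.27 in sh-Pfkp (SE 0.0193, edgeR adjusted p = 3.01e-13) and was 0.0452 higher in sh-Lin41 (SE 0.019, edgeR adjusted p = 0.0444). Cdc20 fell by 0.36 in sh-Lin41 (SE 0.0265, edgeR adjusted p = 3.13e-13) and was not called in sh-Pfkp (0.0138, SE 0.0259, edgeR adjusted p = 0.674).

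**Figure D4:**
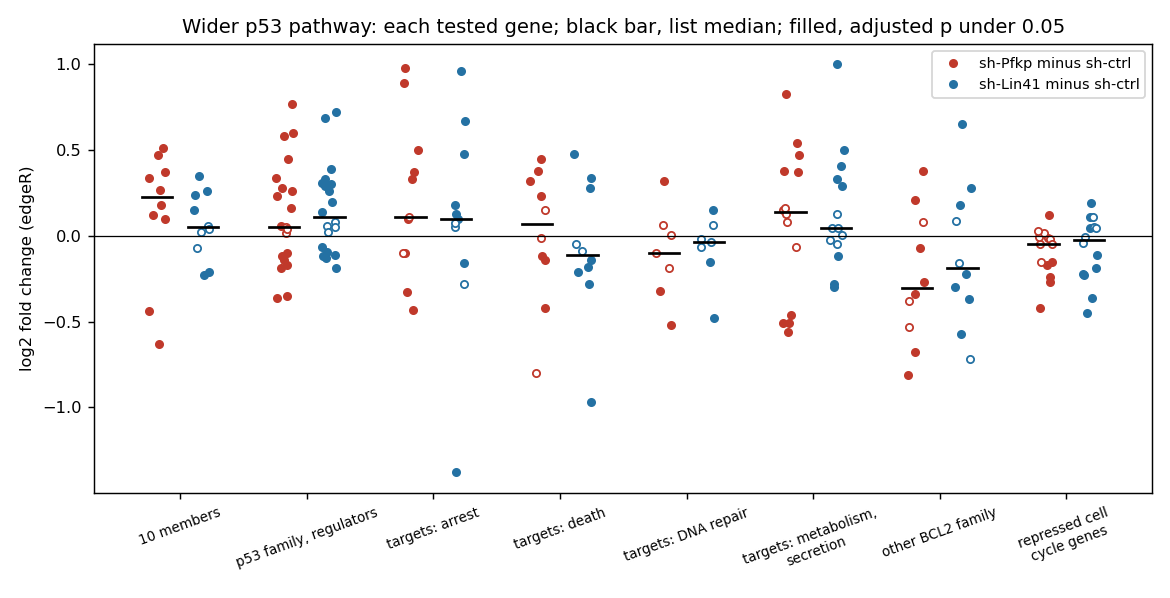
Log2 fold change against sh-ctrl (edgeR) of each tested gene of the p53 lists, for sh-Pfkp and sh-Lin41, with filled points for genes called, open points for those not called and a black bar for the median of each list. Points lie on both sides of 0 in every list, and the 10 chosen genes have medians of 0.227 for sh-Pfkp and 0.0497 for sh-Lin41.

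The genes whose pattern over the 9 libraries was most like that of Trp53 or Mdm2 were found by the root mean square difference of log2 CPM after centring each gene on its mean, among 8451 genes. For Trp53 they were Terf1 (0.0239), Ebna1bp2 (0.025) and Cbfb (0.0258). For Mdm2 they were Fancm (0.0324), Pcf11 (0.0377) and Zfp868 (0.0414). Of the 9 other chosen genes, Trp53inp1 (0.0627) and Ccng1 (0.0852) lay nearest to Mdm2, and Trp53 lay at 0.21 and Pmaip1 at 0.47 from it. These distances describe 9 libraries in 3 groups and rest on the group means.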

How the data were processed

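RNA-seq of 9 libraries was analysed. The deposited read counts are whole numbers per gene and library, per the file headers. FPKM values, log2 ratios of group mean FPKM and p-values with FDR were also deposited by the authors. Per the submitters' processing notes, the tools included RSEM, StringTie 1.3.1, HISAT2, Bowtie2 2.2.8 and fastp 0.18.0, so the counts may be rounded estimates. Not given in the sources used here: build, annotation, strand setting and the authors' test. Bax overlaps Gm45808 (0 to 0.458 CPM) in the GENCODE annotation. No pair of replicates agreed within counting noise (median chi-square 0.661 to 0.763, expected 0.455).

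Counts were tested with edgeR 4.0.16 in R 4.3.3 (filterByExpr, TMM, quasi-likelihood fit of all 9 libraries with 6 residual degrees of freedom, Benjamini-Hochberg adjustment, threshold 0.05). An SE is the size of the log2 fold change over the square root of F. The steps were tested on simulated data. The genes and lists were chosen with earlier results of these data known. From each list, up to 2 called genes per direction and comparison with the smallest adjusted p could be named (with its value in the other knockdown), and for likeness 3 genes (mean CPM 10 or more). Alternatives were DESeq2 1.42.0, limma-voom and limma-trend on FPKM (limma 3.58.1), other scalings and filters, 6-library fits, a replicate block and the omission of each library. Fits of 6 libraries with a replicate block were added after seeing the data. Half-sites were searched in RefSeq windows, exactly or with 1 mismatch at any base except the fixed C and G. Promoters were matched by symbol. SEs and p-values include the variation between libraries of a group.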

Additional observations from a re-analysis of the deposited data

Results flagged for a closer look

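For 9 of the 10 genes the effect of sh-Pfkp differed from that of sh-Lin41 by the direct edgeR contrast of the knockdowns, in which the shared control cancels. The difference of the effects (sh-Pfkp minus sh-Lin41, log2) was 0.41 for Trp53, whose 3 libraries in one knockdown lay above control and in the other below. It was 0.25 for Mdm2, 0.10 for Ccng1 and 0.12 for Trp53inp1, which were higher than control in both knockdowns. It was 0.0831 for Zmat3, 0.45 for Phlda3 and 0.21 for Aen, which passed the test against control in sh-Pfkp alone. It was -0.48 for Bbc3 and -0.42 for Pmaip1. Bax was the exception, with -0.0216. Over all genes tested 55.1% were called in this contrast, so such differences were common.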

How the results depend on the processing

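Each of the 10 genes had 20 alternatives per comparison. Against control, all kept their direction and call except Bax and Zmat3 in sh-Pfkp and Bbc3 in sh-Lin41. Bax and Zmat3 lost the call with library totals and on log2(FPKM + 1), and on log2(FPKM + 0.1) they were at 0.0861 and 0.0553 (limma adjusted p = 0.0885 and 0.256). Bbc3, not called, turned to -0.0155 without sh-Lin41 replicate 1 (range over omitted libraries -0.0155 to 0.11). Between the knockdowns, Bax, not called, turned to 0.0129 without sh-Pfkp replicate 1 and to 0.0151 without sh-Lin41 replicate 1 (range -0.0374 to 0.0151). The number called higher there moved from 7 to 4 on log2(FPKM + 0.1), with Ccng1 at 0.0538 and Trp53inp1 at 0.0732 (limma adjusted p = 0.0952 and 0.0524). The cause was not tested. Leaving out a library left 10 called genes for sh-Pfkp, 6 for sh-Lin41 and 8 to 9 between the knockdowns. Depth limits the least abundant gene, Bbc3.

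With the replicate number as a block, 7435 genes were called for sh-Pfkp, 7109 for sh-Lin41 and 7196 between the knockdowns, against 7451, 7141 and 7255 without it, and none of the calls on the 10 genes changed. Over 9069 genes with a mean log2 CPM above 3, same-numbered libraries had r of at most 0.0398. There, 3 of 6 libraries correlated best with their own number for sh-Pfkp and sh-ctrl. The count was 4 of 6 for sh-Lin41 and sh-ctrl and 2 of 6 between the knockdowns. The numbers were not taken to pair libraries, but these values cannot exclude a pairing. Over the 725 genes above 8, a floor chosen after seeing the data, r was 0.448, 0.327 and 0.349 between sh-Lin41 and sh-ctrl, and all 6 libraries correlated best with their own number. At that floor r was -0.365, -0.142 and 0.128 between sh-Pfkp and sh-ctrl. Between sh-Pfkp and sh-Lin41 r was -0.437, -0.135 and 0.107. In each of these comparisons 1 of 6 libraries correlated best with its own number.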
